A study of Mus musculus with 6 samples.

Results

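The CXC chemokines are small secreted proteins, and 10 of their genes were described here: Cxcl1, Cxcl2, Cxcl3, Cxcl5, Ppbp, Cxcl9, Cxcl10, Pf4, Cxcl14 and Cxcl16. They were taken by symbol from the 27263 genes listed for each library, all 10 were found, and 8 had a mean of at least 1 FPKM, the minimum for a test. FPKM counts the fragments of a gene for its exon length and for the size of the library. The samples were C57BL/6 mouse bone marrow stromal cells, sorted from tibial and femoral marrow as Sca-1+ CD29+ CD45- CD11b- and grown in serum-containing medium. Cells of 3 samples received PBS, the buffer, for 3 days and cells of 3 samples rGCA at 50 nM, which from knowledge of the study is recombinant grancalcin, a protein that binds calcium. The labels give no genotype or age and do not say whether replicates came from separate animals, so the p-values below rest on a spread that may be technical.

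Chemokines draw leukocytes along a gradient by binding receptors on the cell surface, and they are held on cells and matrix by the heparan sulfate chains of proteoglycans. CXC chemokines carry a pair of cysteines with a single residue between them. Those with glutamate, leucine and arginine just before the cysteines, the ELR motif, attract neutrophils through CXCR2, while CXCL9 and CXCL10 are induced by interferon and attract T and NK cells through CXCR3. PF4 is stored in platelet granules and is also made by macrophages. In marrow, stromal CXCL12 keeps stem cells and neutrophils in place through CXCR4, and the ELR chemokines drive neutrophils out into the blood.

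The coding bases around this motif set the order in which the genes are described. In each line below, read 5′ to 3′ from the GENCODE M21 transcript with the longest coding sequence, the capitals mark the 3 codons just before the first of the cysteine codons. Cxcl1, Cxcl2, Cxcl3, Cxcl5 and Ppbp have the codons of the ELR motif there, and the other 5 genes do not.
Cxcl1: aatGAGCTGCGCtgtcagtgcctg
Cxcl2: agtGAACTGCGCtgtcaatgcctg
Cxcl3: agtGAGCTGCGCtgtcagtgcctg
Cxcl5: acgGAGCTGCGTtgtgtttgctta
Ppbp: atcGAACTGCGCtgcagatgtacg
Cxcl9: aggAATGCACGAtgctcctgcatc
Cxcl10: aggACGGTCCGCtgcaactgcatc
Pf4: ggaGATCTTAGCtgtgtgtgtgtg
Cxcl14: gacGGGTCCAAGtgtaagtgttcc
Cxcl16: gtcGCTGGAAGTtgttcttgtgat

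The members on chromosome 5 lie in a pair of groups (coordinates of GENCODE M21 on GRCm38). Cxcl5 (ENSMUSG00000029371, 90759360 to 90761624), Ppbp (90768518 to 90770063), Pf4 (ENSMUSG00000029373, 90772435 to 90773383), Cxcl3 (90786103 to 90789600), Cxcl1 (90891241 to 90893115) and Cxcl2 (90903871 to 90905938) lie on the plus strand in this order. Cxcl9 (92321347 to 92328079) and Cxcl10 (92346638 to 92348889) lie 1415 kb further on, on the minus strand. Cxcl10 is inside the span of Art3, a gene of the opposite strand whose mean was 0.157 FPKM; the sources used here do not say whether counting used the strand. Cxcl14 is on chromosome 13 (56288643 to 56296551) and Cxcl16 on chromosome 11 (70453983 to 70459984).

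Upstream sequence was read for 8 of the 10 genes, from RefSeq on GRCm38.p6; Cxcl5 and Cxcl16 had no entry. Windows of 250 bases before each start were searched on both strands for GGNNNTTCC, a form of the site of NF-kB, the transcription factor of inflammatory induction, for GAAANNGAA, a form of the interferon-response element, and for TATAAA. Of all 32851 such windows, 15.7% held the first, 7.13% the second and 12.4% the third. Cxcl1, Cxcl2 and Cxcl3 are shown together because their windows share the run GGGAATTTCCC, which was picked from these 3 windows and is in 14 of all windows (0.0426%). Inside it the 9 bases GGAATTTCC match the NF-kB form on both strands. Their 100 bases, with matches of the 3 searched motifs in capitals, start 40 bases before the shared run, which begins 71, 97 and 73 bases before the RefSeq starts of Cxcl1 (90891245), Cxcl2 (90903899) and Cxcl3 (90786101). These starts differ by some bases from the GENCODE starts given above.
Cxcl1 (chr5:90891134-90891233, plus strand): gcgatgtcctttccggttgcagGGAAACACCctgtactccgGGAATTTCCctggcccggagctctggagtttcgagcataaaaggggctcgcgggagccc
Cxcl2 (chr5:90903762-90903861, plus strand): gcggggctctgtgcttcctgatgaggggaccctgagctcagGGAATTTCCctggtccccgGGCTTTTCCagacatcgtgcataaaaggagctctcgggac
Cxcl3 (chr5:90785988-90786087, plus strand): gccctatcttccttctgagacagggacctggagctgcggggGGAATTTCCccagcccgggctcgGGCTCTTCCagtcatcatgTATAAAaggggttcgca

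The windows of Pf4 and Cxcl10 are shown whole, since the Pf4 transcript differed most clearly between groups and the Cxcl10 transcript varied most between PBS libraries among the tested members. Capitals again mark the searched motifs. The Cxcl10 window held a match of the interferon element 213 to 205 bases before the start and matches of the NF-kB form at 158 to 150, on both strands, and at 103 to 95 bases. In the Pf4 window none of the 3 was found. Of the windows not printed, that of Cxcl9 held the interferon element at 175 to 167 bases, the NF-kB form at 130 to 122 and at 42 to 34, and TATAAA at 195 to 190. That of Cxcl14 held the interferon element at 172 to 164 bases and that of Ppbp TATAAA at 30 to 25 and at 8 to 3. A match is only a run of letters, and binding was not measured.
Pf4 (chr5:90772185-90772434, plus strand): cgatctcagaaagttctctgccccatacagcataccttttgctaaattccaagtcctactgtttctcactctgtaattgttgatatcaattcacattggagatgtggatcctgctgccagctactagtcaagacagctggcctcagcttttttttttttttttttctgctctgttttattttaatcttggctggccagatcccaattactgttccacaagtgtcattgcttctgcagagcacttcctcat
Cxcl10 (chr5:92348890-92349139, minus strand): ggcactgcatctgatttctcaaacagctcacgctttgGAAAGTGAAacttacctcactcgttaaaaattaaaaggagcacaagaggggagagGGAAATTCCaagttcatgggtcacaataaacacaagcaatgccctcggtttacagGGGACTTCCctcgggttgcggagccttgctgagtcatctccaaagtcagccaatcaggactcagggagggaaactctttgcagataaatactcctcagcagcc

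Library totals, inferred from the values as described below, ran from 17543509 to 18645932 fragments. The fragments recovered over all genes summed to more than the total in every library, 18929251 to 19943266, and the reason was not examined. Of 11984 genes tested with limma, 17.9% passed an adjusted p of 0.05, 11.5% higher and 6.43% lower with GCA. Macrophage transcripts were abundant in all 6 libraries despite the gate: the summed level of 14 macrophage markers was 17818 to 19858 FPKM in PBS and 15223 to 16481 in GCA, and without Lyz2, the macrophage lysozyme, it was 5188 to 5671 and 6790 to 7228. The 12 stromal markers summed to 2879 to 3123 and 2504 to 2698 FPKM. T and NK cell markers, of which 1 of 8 was listed, summed to at most 0.12 FPKM, B cell markers (4 of 6 listed) to at most 0.894, and endothelial markers (8 of 8) to at most 3.31.

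Among the 10 genes, Pf4 rose and Cxcl5 fell, and the other 6 tested genes did not pass. That is 2 of 8 past the threshold beside 17.9% of all tested genes; 1 of 8 was higher beside 11.5%, and 1 of 8 lower beside 6.43%. The median log2 fold change of the 8 was −0.26, beside 0.01 over all tested genes. Groups did not overlap for 3 of 8, beside 38.5% of all tested genes: Pf4 higher with GCA (background 21.6%) and Cxcl5 and Cxcl16 lower (background 16.8%). Fold changes in log2 units are on log2(FPKM + 1), which understates changes of low genes.

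**Figure D1:**
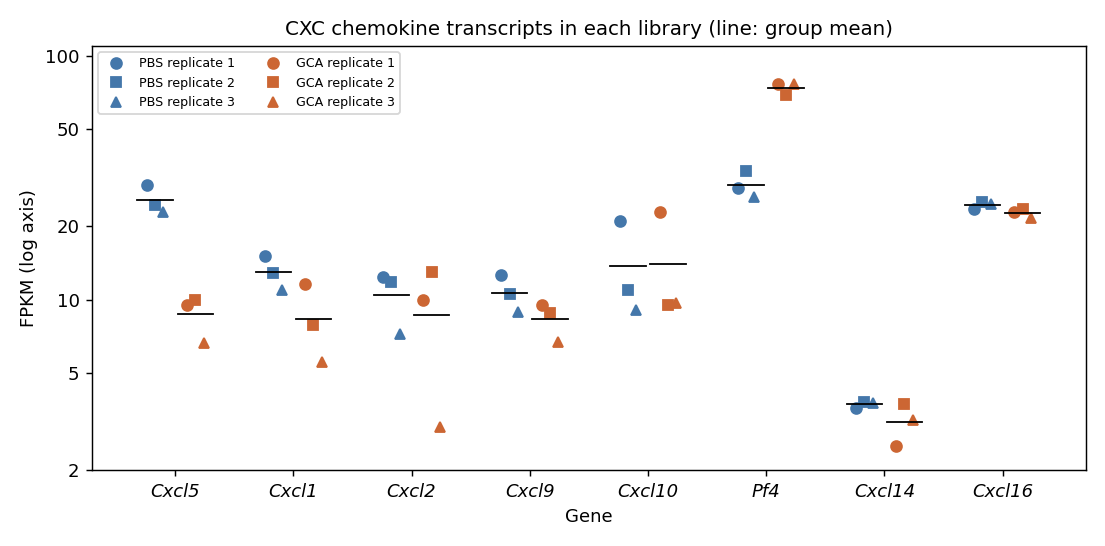
FPKM (log axis) of the 8 tested genes in each library, with circles, squares and triangles for replicates 1 to 3, PBS in blue, GCA in orange and a line at the group mean. All GCA values of Pf4 (68.94 to 77.05) lie above PBS and all those of Cxcl5 (6.621 to 9.974) below it, while Cxcl10 has 1 high library in each group.

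Cxcl5, an ELR chemokine that attracts neutrophils, was the member that fell. It stood at 29.53, 24.48 and 22.91 FPKM in PBS replicates 1 to 3 and at 9.559, 9.974 and 6.621 in GCA replicates 1 to 3. The lowest PBS library was above the highest GCA library. The means were 25.6 ± 3.46 and 8.72 ± 1.83 FPKM (SD, n = 3 each), 2.94-fold lower with GCA, from 761 to 1003 fragments per PBS library and 230 to 326 per GCA library. On the log2 scale the change was −1.47 (SE 0.162, limma adjusted p = 0.00279), the sixth most negative of the 11984 tested genes, predicted genes included. The stromal marker sum, given above, was also lower in every GCA library than in any PBS library. So was the sum of the 14 macrophage markers, though not without Lyz2. Inside PBS, replicate 1 had the highest stromal sum (3123 FPKM) and the highest Cxcl5. Inside GCA, replicate 3 had the highest stromal sum (2698 FPKM) and the lowest Cxcl5. Col1a1 and Col1a2 made up most of the stromal sum. Of 11 tested stromal markers 3 fell (Col1a2, Pdgfrb and Col3a1), beside 6.43% of all tested genes, and 8 did not pass. Among those 8, Dcn, Lum and Ly6a were higher by means with GCA and the rest lower. The call of Col1a2 was lost under 5 of 16 alternatives (limma adjusted p = 0.0529 to 0.0916). The part of the stromal markers in the fall of Cxcl5 was not tested.

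Cxcl1, its close relative and the mouse counterpart of human GRO-alpha, was at 15.13, 12.87 and 10.98 FPKM in PBS and 11.62, 7.904 and 5.549 in GCA. The groups overlapped, since GCA replicate 1 was above PBS replicate 3. The log2 fold change was −0.62, with a 95% interval of −1.26 to 0.02 (limma adjusted p = 0.162). It was −0.86 without GCA replicate 1, and passed (adjusted p = 0.0371), and −0.39 without GCA replicate 3 (0.243). Cxcl1 also passed with the replicate number added to the model (limma adjusted p = 0.0113), but the labels do not say what that number means. For each FPKM of Cxcl5 the PBS libraries held 0.479 to 0.526 FPKM of Cxcl1 and the GCA libraries 0.792 to 1.215. This ratio did not overlap between groups, but it covers this pair alone and is taken over Cxcl5, the member that fell.

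Cxcl2, also called MIP-2, attracts neutrophils and is an early product of stimulated macrophages. It was at 12.44, 11.8 and 7.242 FPKM in PBS and 10.02, 13.01 and 3.008 in GCA. GCA replicate 2 was the highest library and GCA replicate 3 the lowest, a 4.33-fold range inside the group. Its log2 fold change was −0.40, with a 95% interval of −1.66 to 0.87 (limma adjusted p = 0.64), and it was 0.15 without GCA replicate 3. Tnf, another early macrophage product, was also low in GCA replicate 3, at 8.148 FPKM against 19.3 to 22.72 in the other libraries.

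Cxcl3 and Ppbp were close to absent. Cxcl3, which like Cxcl1 and Cxcl2 attracts neutrophils, had 3, 3 and 1 fragments in PBS and 5, 1 and 0 in GCA, at most 0.08 FPKM. Ppbp, the precursor of the platelet chemokine NAP-2, had 0, 2 and 2 fragments in PBS and 1, 1 and 0 in GCA, at most 0.104 FPKM. A count of 0 allows up to 3 fragments, which is 0.046 FPKM for Cxcl3 in GCA replicate 3 and 0.149 to 0.152 for Ppbp in its 2 libraries at 0; this limit covers counting error only, as fragments were not counted as single molecules. Neither gene was tested, and no difference was detectable at this depth. Cxcl3 holds the run GGGAATTTCCC printed above, as Cxcl1 and Cxcl2 do, and had at most 5 fragments in any library, beside 194 to 517 for Cxcl1. Cxcl2 and Cxcl3 transcripts share a run of 157 identical bases, longer than the 150 bp reads, so reads inside it cannot be assigned to either gene by sequence alone; Cxcl1 shares at most 23 with either.

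Pf4, platelet factor 4, was the member that rose. It stood at 28.84, 33.76 and 26.29 FPKM in PBS and at 77.05, 68.94 and 76.62 in GCA. Every GCA library was above every PBS library, and the spread inside each group was small beside the gap. The means were 29.6 ± 3.80 and 74.2 ± 4.56 FPKM (SD, n = 3 each), 2.50-fold higher with GCA, from 338 to 442 and 872 to 1030 fragments per library. On the log2 scale Pf4 changed by 1.30 (SE 0.09, limma adjusted p = 0.000296), the 19th largest rise of the 11984 tested genes, predicted genes included.

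Markers of platelets and their precursors were low in both groups. Of 14 such genes 13 were listed and 3 tested, Gp1bb, Treml1 and Itgb3, and none passed in limma, at an unadjusted p of 0.05 (0 genes) or with limma-voom on recovered fragments (0 genes). Their summed level was 5.04 to 5.34 FPKM in PBS and 4.35 to 5.28 in GCA. Itga2b, the integrin that defines the lineage, was at most 0.502 FPKM, the platelet collagen receptor Gp6 was at 0 in 5 of 6 libraries, and Ppbp, which platelets store with PF4, had 0 to 2 fragments. Some macrophage markers rose as Pf4 did: of 14 tested, 7 rose, beside 11.5% of all tested genes (Laptm5, Cd68, Mrc1, C1qa, C1qb, C1qc and Fcgr1). Lyz2 was the 1 that fell, beside 6.43%, and the adjusted p of the other 6 was over 0.05. Of those 6, Cd14 went from 76.3 to 41.3 FPKM without overlap of the groups (log2 −0.95, limma adjusted p = 0.0852). Itgam went from 39.3 to 30.5 and Adgre1 from 355 to 300 FPKM, with overlap. Csf1r, Ptprc and Mertk were level or slightly higher by means. The part of the macrophage markers in the rise of Pf4 was not tested. The call of Lyz2 (limma adjusted p = 0.438) and that of C1qb (0.368) were lost after quantile normalization. For each 1000 FPKM of the 13 macrophage markers other than Lyz2, Pf4 was at 5.558, 5.988 and 4.636 FPKM in PBS and 10.66, 10.15 and 10.72 in GCA, 1.95-fold higher by means. C1qa, C1qb and C1qc made up most of the sum of these 13 markers. Over all 14 markers, in whose sum Lyz2 dominates, Pf4 was at 1.618, 1.7 and 1.357 in PBS and 4.786, 4.183 and 5.033 in GCA, 2.995-fold higher. In bulk RNA, more cells of a type and more transcript per cell cannot be told apart.

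**Figure D2:**
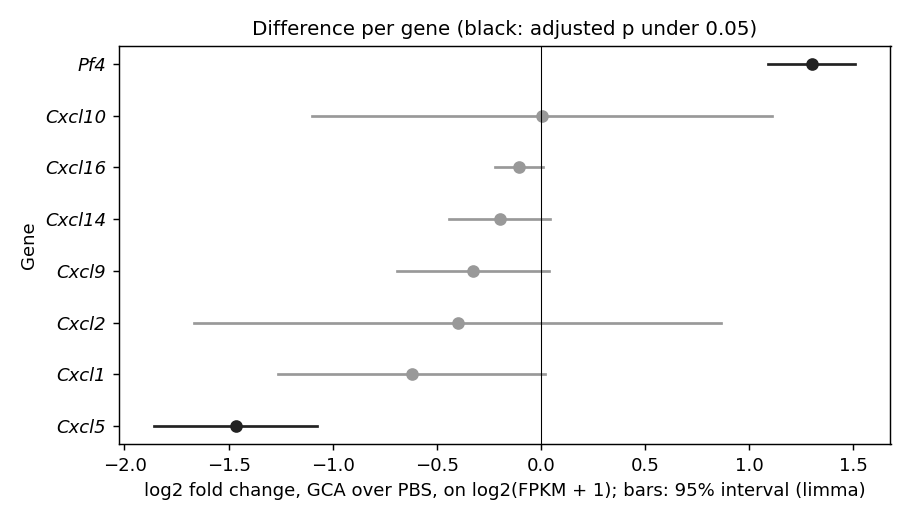
Log2 fold change of GCA over PBS for the 8 tested genes, as points with 95% intervals from limma, in black where the adjusted p is under 0.05. The intervals of Pf4 (1.09 to 1.51) and Cxcl5 (−1.86 to −1.07) exclude 0 and the other 6 include it.

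The pair that moved in opposite directions are near neighbours. Pf4 begins 10.81 kb after the end of Cxcl5 on the same strand, with Ppbp, close to 0, between them. The ratio of Pf4 to Cxcl5 was 0.976, 1.38 and 1.15 in PBS and 8.06, 6.91 and 11.6 in GCA.

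**Figure D3:**
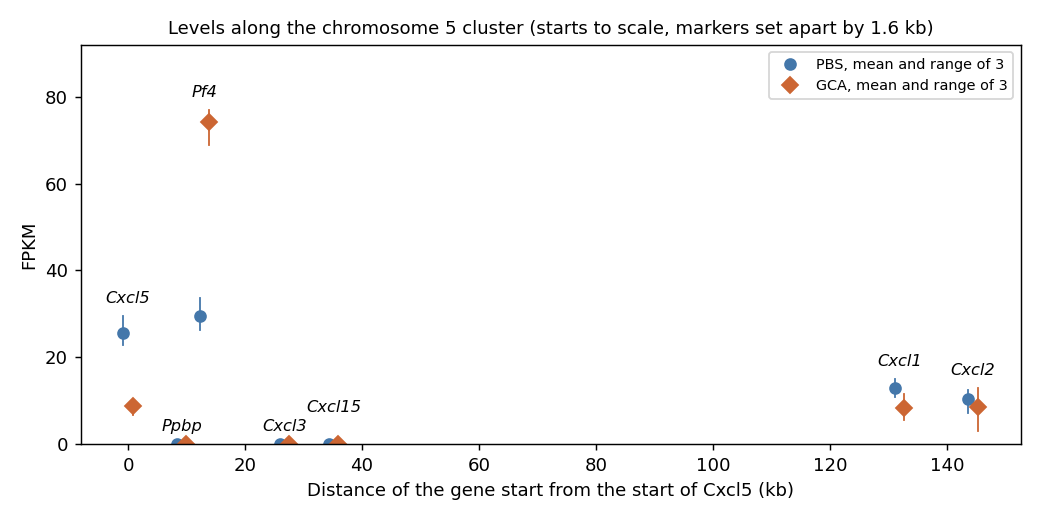
FPKM of the genes of the plus-strand cluster on chromosome 5 against the distance of each start from that of Cxcl5 in kb, with the mean and the range of 3 libraries per group. Pf4, at 13.08 kb, is higher with GCA and Cxcl5, at 0 kb, lower, while Ppbp, Cxcl3 and Cxcl15 lie at the axis.

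Cxcl9 and Cxcl10, the interferon-induced pair, did not pass. Cxcl9 was at 12.6, 10.59 and 8.908 FPKM in PBS and 9.488, 8.826 and 6.704 in GCA. GCA replicate 1 was above PBS replicate 3, so the groups overlapped, and the log2 fold change was −0.33 (95% interval −0.69 to 0.04, limma adjusted p = 0.194). With the replicate number, whose meaning the labels do not give, added to the model, Cxcl9 passed (limma adjusted p = 0.0115). Cxcl10 was at 21.14, 10.93 and 9.116 FPKM in PBS and 23, 9.517 and 9.74 in GCA. Replicate 1 was high in both groups and the other 4 libraries lay between 9.116 and 10.93. Its log2 fold change was 0.01 (95% interval −1.10 to 1.11, limma adjusted p = 0.995).

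Cxcl14 and Cxcl16, the members outside chromosome 5, did not pass either. Cxcl14 was at 3.603, 3.828 and 3.776 FPKM in PBS and 2.513, 3.744 and 3.229 in GCA; GCA replicate 1 was lowest and the groups overlapped (log2 −0.20, 95% interval −0.44 to 0.05, limma adjusted p = 0.236, and −0.08 without GCA replicate 1 or −0.30 without GCA replicate 2). Cxcl16, made as a membrane-bound protein that ADAM10 and ADAM17 release, was at 23.55, 25.29 and 24.79 FPKM in PBS and 22.91, 23.53 and 21.76 in GCA. Its highest GCA library was just under its lowest PBS library. The log2 fold change was −0.11, with a 95% interval of −0.22 to 0.01 (limma adjusted p = 0.189).

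The groups overlapped in the summed level of the family but not in the shares of Pf4, Cxcl5 and the ELR genes together. The 10 genes summed to 146.9, 133.7 and 114.1 FPKM in PBS and 166.3, 145.5 and 133.2 in GCA, ranges that overlap. Without Pf4 the sums were 118, 99.9 and 87.8 in PBS and 89.2, 76.6 and 56.6 in GCA, which overlap only through GCA replicate 1 and PBS replicate 3. Pf4 took 19.6% to 25.3% of the sum in PBS and 46.3% to 57.5% in GCA. The 5 ELR genes took 36.1% to 38.9% in PBS and 11.4% to 21.3% in GCA. Cxcl1 took 9.62% to 10.3% in PBS and 4.17% to 6.99% in GCA, and in GCA replicate 3, the library with the lowest ELR share, Cxcl2 took 2.26%, beside 6.03% or more in each other library. The shares of Cxcl1 and Cxcl9 did not overlap between groups although their FPKM did. Those of Cxcl2, Cxcl10, Cxcl14 and Cxcl16 overlapped. Shares are parts of a whole, so a larger share of Pf4 lowers those of the other genes. The shares were not tested.

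**Figure D4:**
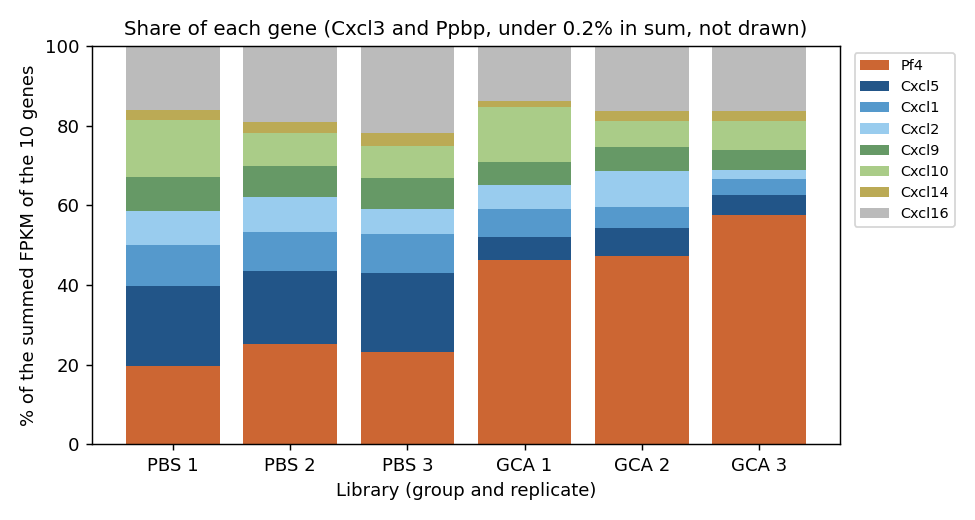
Share of each gene in the summed FPKM of the 10 genes (percent), 1 bar per library. Pf4, at the base, takes 19.6% to 25.3% in PBS and 46.3% to 57.5% in GCA, and Cxcl5, above it, 18.3% to 20.1% and 4.97% to 6.86%.

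In PBS the order of mean FPKM was Pf4 (29.6), Cxcl5 (25.6), Cxcl16 (24.5), Cxcl10 (13.7), Cxcl1 (12.99), Cxcl9 (10.7), Cxcl2 (10.5), Cxcl14 (3.74), Ppbp (0.0684) and Cxcl3 (0.0368). Neighbours in this order overlapped in their libraries, except that Cxcl16 was above all libraries of Cxcl10 and Cxcl14 lay between Cxcl2 and Ppbp without overlap. In GCA, Pf4 at 74.2 stood above Cxcl16 at 22.7, which overlapped Cxcl10 at 14.1. The order below Cxcl16 depends on the length used. The exon length behind the FPKM counts retained-intron transcripts, and it is 1.97 times the longest coding transcript for Cxcl1, 1.66 times for Cxcl10 and 3.44 times for Cxcl3. With the length of the longest coding transcript in its place, the PBS levels were 36.3 for Pf4, 30.3 for Cxcl5 and 27.5 for Cxcl16. Cxcl1 followed at 25.6 and Cxcl10 at 22.9. Pf4, Cxcl5 and Cxcl16 kept their places, while Cxcl1 moved above Cxcl10, Cxcl2 above Cxcl9 and Cxcl3 above Ppbp. Fold changes between groups are not touched by the choice of length.

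The tested genes whose log2(FPKM + 1) followed that of Pf4 most closely over the 6 libraries, by Pearson's r among 10871 named genes, were Chmp4b (0.999), Cnot9 (0.998) and Ube2c (0.998). Those for Cxcl5 were Limd1 (0.996), B3galnt2 (0.996) and Klf6 (0.995). All 6 libraries enter these values, so a gene that only separates the groups scores high. Chmp4b went from 124 to 150 FPKM and Limd1 from 11.5 to 9.76, so their changes were smaller than those of the chemokines they followed.

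Around the family, neither of the 2 other CXC ligands tested passed (0 at an unadjusted p of 0.05 in limma and 0 with limma-voom). Cxcl12, the stromal ligand that keeps hematopoietic cells in marrow, was the most abundant at 124 and 115 FPKM (limma adjusted p = 0.394). Cxcl13, which attracts B cells, was at 13.59, 18.49 and 12.88 FPKM in PBS and 16.17, 55.61 and 13.38 in GCA, with GCA replicate 2 alone high (adjusted p = 0.501). Cxcl11, Cxcl15 and Cxcl17 had at most 0.289 FPKM and were not tested. Of 8 receptors 7 were listed and 2 tested. Cxcr4, the receptor of CXCL12, fell from 38.1 ± 1.78 to 26.1 ± 3.09 FPKM (SD, n = 3 each; log2 −0.54, limma adjusted p = 0.00476), and its groups did not overlap. The decoy receptor Ackr3 was at 1.02 and 1.05 FPKM. Cxcr1 had at most 2 fragments in a library, and Cxcr3, the receptor of CXCL9 and CXCL10, was at 0.317 to 0.605 FPKM in PBS and 0.744 to 1.068 in GCA, below the minimum for a test. Cxcr2 was the receptor not listed, so no value could be read for it.

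Genes that hold or cut chemokines moved in part. Among 10 proteoglycans and heparan sulfate enzymes 1 rose (background 11.5% of tested genes) and 2 fell (background 6.43%), and the median log2 fold change of the list was 0.00, beside 0.01 over all tested genes. Syndecan 3 (Sdc3), a cell-surface heparan sulfate proteoglycan, rose from 84.1 ± 1.86 to 125 ± 2.84 FPKM (limma adjusted p = 0.00033), and syndecan 1 (Sdc1) fell from 51.2 ± 2.81 to 38.4 ± 0.929 (0.00208). Srgn, the serglycin core protein that binds PF4 in platelet granules, fell from 29.8 to 24.6 FPKM (adjusted p = 0.0354), a call lost under 6 of 16 alternatives (adjusted p = 0.0568 to 0.119), among them those without PBS replicate 2 or 3 or GCA replicate 1 or 3. Of 7 tested proteases 1 fell (background 6.43%): Mmp2, a gelatinase that trims chemokines, went from 150 to 125 FPKM (adjusted p = 0.0179), a call lost with no filter and without GCA replicate 1 or 3 (0.0513 to 0.0649), and 6 did not pass. Among these were Adam10 and Adam17, at 37.85 to 41.74 and 29.19 to 34.74 FPKM over all 6 libraries. Dpp4, which trims CXCL10, had at most 3 fragments.

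Upstream regulators changed at few places. None of 14 NF-kB genes passed, beside 17.9% of all tested genes, with a median log2 fold change of −0.02 (limma); Ikbkg had the smallest adjusted p at 0.172. At an unadjusted p of 0.05 the count was also 0, as it was with limma-voom on recovered fragments. Of 12 tested genes of IL-1, TNF, IL-17 and TLR signalling, 1 rose and 2 fell (backgrounds 11.5% and 6.43%), and the median was −0.08. Il1a, the interleukin-1 alpha cytokine, rose from 0.42 ± 0.194 to 3.18 ± 0.954 FPKM (log2 1.54, limma adjusted p = 0.00132). All of its PBS libraries were under 1 FPKM (0.284 to 0.642). It therefore reached the minimum for a test only through its GCA libraries (2.445 to 4.255), and the filter at a mean of 5 FPKM left it out. The receptor antagonist Il1rn fell from 16.8 to 14.0 FPKM (adjusted p = 0.0194) and the IL-17 receptor Il17ra from 6.92 to 5.53 (0.0304). Both calls were lost with no filter and without PBS replicate 1 or 3 or GCA replicate 1 or 3, and that of Il17ra without PBS replicate 2 as well (adjusted p = 0.0522 to 0.0671 for Il1rn and 0.0708 to 0.0999 for Il17ra). Il1b had at most 8 fragments in a library.

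Among genes of interferon receptors and their signalling, 2 of 12 tested rose, beside 11.5% of all tested genes, none fell, and the median log2 fold change was 0.10. The kinase Tyk2 rose from 8.74 to 10.9 FPKM (limma adjusted p = 0.0152, lost with no filter and without PBS replicate 2 or GCA replicate 1, at 0.0511 to 0.0586) and the interferon gamma receptor Ifngr1 from 58.6 to 65.9 (0.0487, lost under 11 of 16 alternatives, among them each left-out library, at 0.0527 to 0.138). Interferon beta (Ifnb1) had at most 3 fragments. Of 9 genes that bind AU-rich messages or signal to such binders, which set the stability of chemokine transcripts, the p38 kinase Mapk14 rose from 32.1 to 37.4 FPKM (limma adjusted p = 0.0221, lost with no filter and without any 1 PBS library or GCA replicate 3, at 0.0554 to 0.0687), and the other 8 missed the threshold (list median 0.06), so that 1 of 9 rose beside 11.5% of all tested genes. Among neutrophil markers, whose bearers the ELR chemokines attract, 8 of 12 were listed and summed to 10.9 to 13.4 FPKM in PBS and 13.4 to 18.9 in GCA. Csf3r, also found on macrophages, made up most of that and was the 1 of 3 tested that rose (background 11.5%), from 8.22 to 12.3 FPKM (adjusted p = 0.0266, lost with no filter and without PBS replicate 2 or 3 or GCA replicate 1 or 2, at 0.0707 to 0.0891). Ly6g, Elane and Mpo, which define neutrophils and their precursors, had at most 2 fragments in a library, while S100a8 (1.049 to 4.025 FPKM) and Camp (0.941 to 1.698 FPKM), the other tested markers, were found in all 6 libraries and did not pass.

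**Figure D5:**
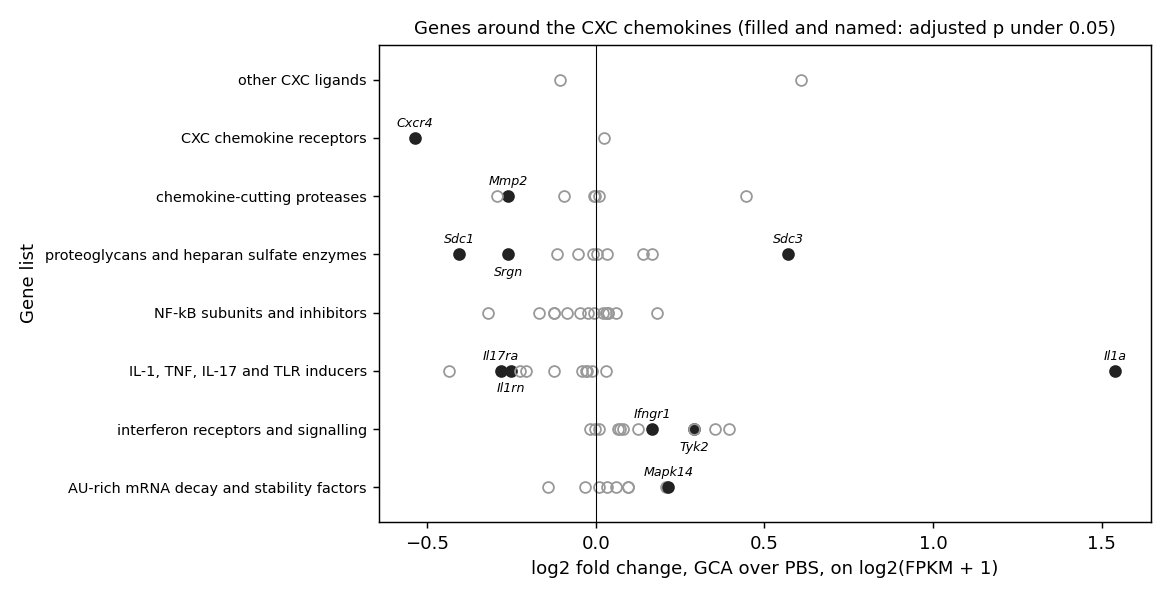
Log2 fold change of GCA over PBS for the tested genes of 8 lists around the family, 1 point per gene, filled and named where the adjusted p is under 0.05. Il1a, with all PBS libraries under 1 FPKM, lies farthest right at 1.54 and Cxcr4 farthest left at −0.54. No point of the NF-kB list is filled.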

How the data were processed

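RNA sequencing of 6 libraries, 3 per group, as 150 bp paired-end reads, gave 1 value per Ensembl gene. The deposited files do not name the unit. It was read as FPKM from the values: multiplied by the exon-union length in GENCODE M21, 91.0% of the deposited values above 0 gave a whole fragment count, to within 0.02 fragment, with 1 total for each library (17543509 to 18645932). The submitters' processing notes name Bowtie 0.12.2 and builds mm8 and mm9; the sources used here do not give the counter, annotation or filters. The lengths are of GRCm38, so coordinates are attached by Ensembl identifier, and 27204 of 27263 genes matched.

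Genes that averaged 1 FPKM or more (11984) were fitted with limma 3.58.1 (R 4.3.3), with trend and robust moderation, on log2(FPKM + 1). The model held treatment alone, and two-sided p-values were adjusted over all tested genes (Benjamini-Hochberg, threshold 0.05). The step was run on simulated data in which every gene had the same spread. Real genes differ in spread, so that run does not test the p-values of single genes. Members, gene lists and alternatives were chosen with earlier results of these data known; 1 gene of the interferon list is not reported here. All members are named, with up to 4 genes of smallest p per list around them, others as examples, and the 3 genes most correlated with each called member. Sequences came from RefSeq (GRCm38.p6) and GENCODE M21, read with Python 3.11.15 and Biopython 1.88. The alternatives were a replicate block, quantile normalization, median centring, other filters and pseudocounts, limma without trend, limma-voom on recovered fragments, protein-coding genes alone and leaving out each library.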

Additional observations from a re-analysis of the deposited data

How the results depend on the processing

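Pf4 and Cxcl5 kept their direction and their call under all 16 alternatives. The log2 fold change of Pf4 ran from 1.22 to 1.40 (limma adjusted p = 9.41e-08 to 0.00437) and that of Cxcl5 from −1.58 to −1.30 (0.000311 to 0.0135). The number of members lower with GCA was 3 with the replicate number as a block, since Cxcl1 (log2 −0.62, adjusted p = 0.0113) and Cxcl9 (log2 −0.33, 0.0115) then passed beside Cxcl5, and 1 to 2 on leaving out a library; it was 2 without GCA replicate 1. The number higher was 1 under all 16. With the block the SE of Cxcl10 was 0.072 in place of 0.443, at the same log2 fold change of 0.007 (adjusted p = 0.961). The log2 fold change of Cxcl9 ran from −0.44 to −0.19 on leaving out a library, without a call. The labels do not say what a shared number means. Deviations from the group means correlated across genes at 0.082, 0.029 and 0.068 for same-numbered pairs. These values are low, although every library correlated best with its own number. Whether a number marks a shared batch or animal could not be told. The block gave 2094 calls over all genes (17.5% of those tested) beside 2151. That count was 1075 with no filter on low values, and on leaving out a library it ran from 1232 (without PBS replicate 3) to 2088 (without GCA replicate 2), with 1308 without PBS replicate 2 and 1375 without GCA replicate 1. Quantile normalization gave 1198 higher and 1027 lower genes, 53.8% higher beside 64.2%. On leaving out a library, the log2 fold change of Cxcl2 ran from −0.757 (GCA replicate 2 left out) to 0.145 (GCA replicate 3 left out). That of Cxcl10 was −0.023 after quantile normalization, −0.006 after median centring and, on leaving out a library, from −0.39 (GCA replicate 1 left out) to 0.34, with −0.10 and −0.22 for PBS replicates 2 and 3; the cause was not tested. Cxcl14 was left out by the filter at a mean of 5 FPKM. With no filter, Cxcl3 and Ppbp had adjusted p-values of 0.94 and 0.653, from at most 5 fragments in a library.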
